A study of Drosophila melanogaster with 7 samples.

Results

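Salivary glands of Drosophila melanogaster that expressed the yeast transcription activator GAL4 from the line P{hs-GAL4}X1 were compared with glands of the strain w1118 on 5 arrays, 3 of X1 and 2 of w1118, out of 7 arrays in the series. Arrays were chosen by their labels. X1 animals carried 2 copies of a GAL4 transgene driven by a heat-shock promoter, which is active in all tissues of the animal during the shock. They were heat shocked at 9 h after puparium formation, and w1118 animals, which had no GAL4 label, at 9.5 h. In both groups the shock lasted 30 min at 37 °C in animals otherwise kept at 25 °C. Glands were dissected at 14 h, which was 5 h after the labelled time of the shock in X1 and 4.5 h after it in w1118. The difference in time, the strain background and GAL4 cannot be told apart in this comparison. The other 2 arrays were of a second transgene insertion, line 89, with 2 copies and with 1 copy. The series text calls the arrays of X1 and of w1118 biological replicates.

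GAL4 binds DNA sites that flank yeast galactose genes and recruits the transcription machinery there, and flies have no counterpart of it, which is why it is used to switch on chosen transgenes. The prepupal salivary gland is a secretory tissue of large polyploid cells that makes glue and later secretions and is then removed by hormone-driven cell death, with the lysosome and autophagy taking part. JAK/STAT and JNK are stress- and damage-responsive pathways in flies. In JAK/STAT, the unpaired ligands bind the receptor Domeless, which acts through a kinase on the factor Stat92E. In JNK, the ligand Eiger and a kinase cascade act on the factor Fos, called kayak in flies.

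Each value is a dChip expression value, a linear intensity that the authors scaled to a single baseline array. Median intensity was 33.7, 37.2 and 38 on the X1 arrays, against 42.2 and 42.5 on the w1118 arrays. The share of probe sets under an intensity of 16 was 30.0%, 23.4% and 23.7% on the X1 arrays, against 20.3% and 18.9% on the w1118 arrays. The bacterial control RNAs added to the samples had log2 ratios of 5' to 3' signal of -3.25, -2.97 and -3.11 on the X1 arrays, against -0.82 and -1.19 on the w1118 arrays. On the line 89 arrays the ratio was -1.51 with 2 copies and -1.5 with 1 copy. This measure of the added RNAs and their labelling moves with the groups in both comparisons. Its part in the results was not tested. The same ratio for eIF4A was -0.85, -0.84 and -1.03 in X1, against -0.66 and -0.71 in w1118. Of 28 salivary gland markers 25 were measured, of which 3 rose and 2 fell, and their summed intensity was 117233 to 118613 in X1, against 107542 and 111856 in w1118. The 7 measured fat body markers summed to 7815 to 10014 in X1, against 13669 and 14730 in w1118, and 0 rose while 2 fell. The called falls were Fbp2 (log2 change -5.51) and the dim Yp1 (-1.12). Fbp1 (-1.45), Lsp2 (-0.21), apolpp (0.01), Yp2 (0.21) and Yp3 (0.53) did not pass, so the fat body markers did not fall alike. Trachea markers summed to 846 to 2170 in X1, against 1439 and 1853 in w1118. The summed midgut markers were 364 to 885 in X1, against 653 and 814 in w1118. In X1 the highest of both sums belonged to replicate 1. Summed markers were 899 to 1326 in X1 against 898 and 988 in w1118 for hemocytes, 283 to 625 in X1 against 329 and 344 in w1118 for muscle, and 363 to 810 in X1 against 393 and 430 in w1118 for neurons. The part of other cell types in the results was not tested. No marker of any of these lists lay at or under 16 on all 5 arrays.

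In X1 glands the genes that rose included the JAK/STAT ligand genes upd1 and upd2 and the JNK ligand gene egr. Some factors of splicing, actin, integrin adhesion and the lysosome rose too. The call of egr ended without X1 replicate 2 or 3 or w1118 replicate 1 or 2. After quantile normalization the lysosome list had 7 genes higher and 9 lower. The genes that fell included Su(fu), ci and cos of the Hedgehog pathway, Egfr, and the small RNA factors pasha and r2d2, of which ci, cos and pasha did not pass with hybridization scaling. Their values follow by function. The tested table held 18769 fly probe sets, and 3404 of them (18.1%) passed a Benjamini-Hochberg adjusted p under 0.05 by limma, 1407 higher (7.5%) and 1997 lower (10.6%) in X1. Each gene was then taken with its brightest probe set, which gave 11982 genes. Of these, 2510 (20.9%) were called, 1132 higher (9.45%) and 1378 lower (11.5%). The median log2 change over all genes was -0.12. Among the 5328 genes whose brighter group averaged at least 100, 1722 (32.3%) were called, 991 higher (18.6%) and 731 lower (13.7%). Among the 6654 dimmer genes 788 (11.8%) were called, 141 higher (2.12%) and 647 lower (9.72%). In bulk glands, fewer cells of a type and less RNA per cell cannot be told apart.

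Large rises were the minor part of the calls. Of the called genes, 26.7% changed less than 2-fold, 184 higher and 486 lower, and 42.5% changed 2- to 4-fold, 423 higher and 645 lower. Changes of 4- to 8-fold made up 16.7% of calls, with 255 genes higher and 164 lower. The 8- to 16-fold class held 124 genes higher and 53 lower. At 16-fold or more were 146 genes higher and 30 lower, 7.01% of the calls. The counts by direction depended on how the arrays were scaled. Quantile normalization called 1172 genes higher and 1395 lower, and scaling each array to the same median called 1398 and 969. Scaling by the bacterial hybridization controls moved the median of all genes by 0.44, to 0.32, and called 1641 higher and 353 lower. Wherever one of these scalings moved the split of a list by more than 10 percentage points, its own counts stand in brackets after the count. On the chromosome arms, 8.48% to 11.0% of the genes of 2L, 2R, 3L, 3R and X rose and 10.8% to 12.4% fell. Of the 65 genes of chromosome 4, 3.08% rose and 7.69% fell.

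**Figure D1:**
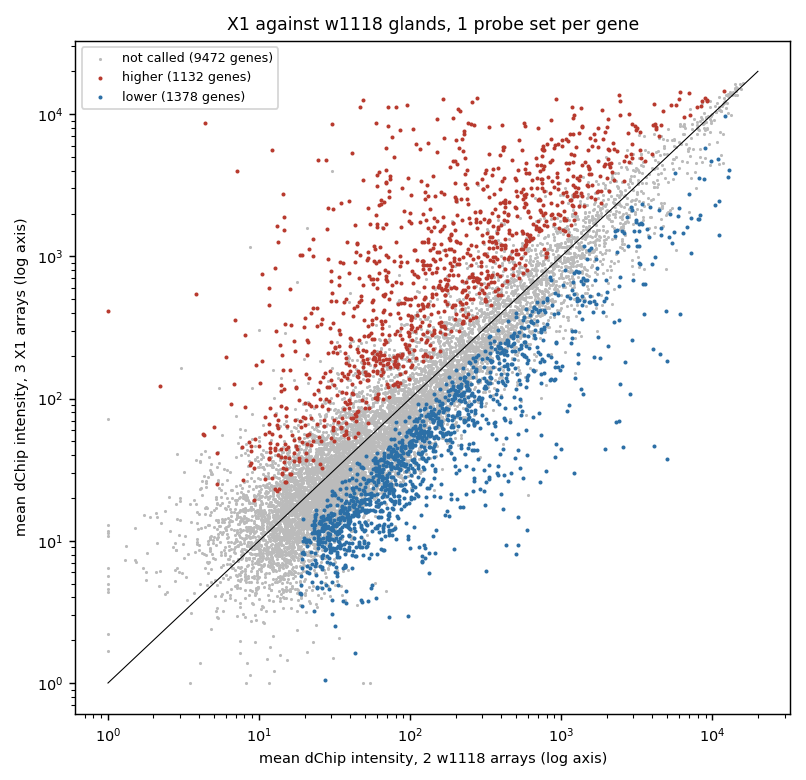
Mean intensity of each gene on the 3 X1 arrays (vertical, log axis) against that on the 2 w1118 arrays (horizontal, log axis), 1 probe set a gene. Red points are the 1132 genes called higher and blue points the 1378 called lower; the diagonal marks equal means.

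Functions were described with 43 lists that held 1502 different measured genes, of which 184 rose and 159 fell. No list was tested as a set; each count is read beside the shares of all genes, 9.45% higher and 11.5% lower, and the shares of the genes averaging at least 100, 18.6% higher and 13.7% lower, since rises were far more frequent among bright genes. From each list the member with the largest rise and the member with the largest fall were taken as named genes under a rule given with the methods. The rule required X1 and w1118 arrays that do not overlap. Statements of separation below therefore describe the values and give the calls no support. Other members named below were chosen after their values were seen, so their separation is no support either. Where a call ended when an array was left out, the arrays concerned and the log2 changes without them stand in brackets at the end of the paragraph, followed by calls that ended under another scaling, with the log2 change under it. Leaving out 1 array moved a count by over 1.5 times in 42 of the 43 lists, the exception being JAK/STAT, and the range of its counts stands in brackets after each. Where single arrays fell to the floor of 16 or below, the size of a change depends on the floor, and its values with floors of 1 and 64 are given.

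**Figure D2:**
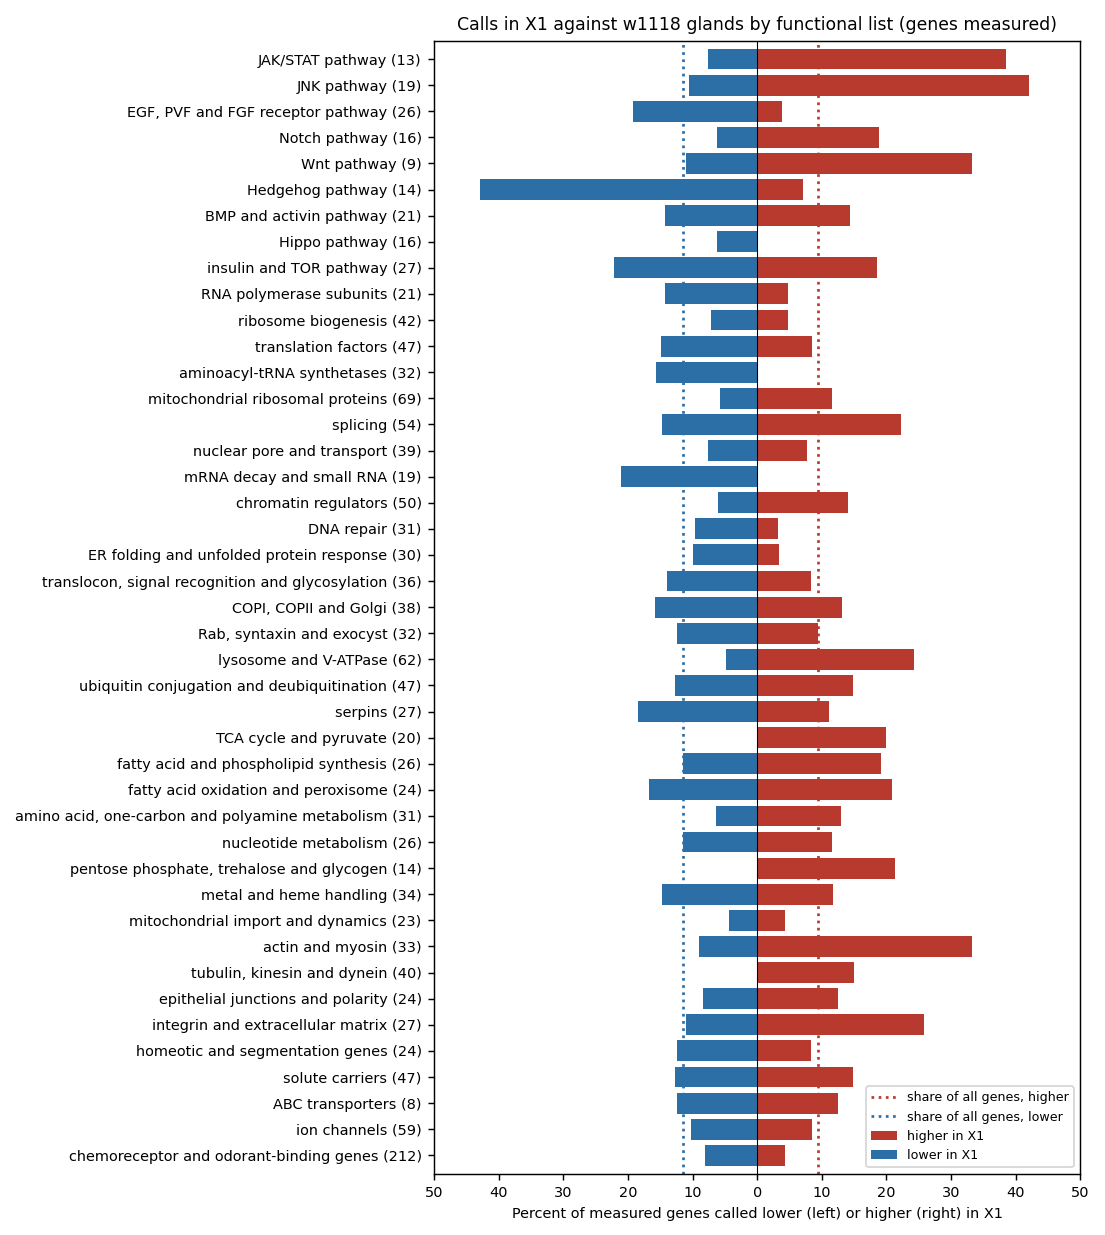
Percent of the measured genes of each of 43 functional lists called lower (blue, left) and higher (red, right) in X1 against w1118, with the number measured in brackets. Dotted lines give the shares over all genes, 9.45% higher and 11.5% lower.

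In the JAK/STAT list 5 of 13 measured genes were called higher and 1 lower, with a median log2 change of 0.54. Among the 9 of its genes that averaged at least 100 in the brighter group, 5 rose and 1 fell. The ligand gene upd1 had intensities of 4255, 6762 and 5812 in X1 glands, against 19.7 and 4.65 in w1118 glands (log2 change 8.28 ± 0.25, adjusted p = 0.00132). Every X1 array was far above both w1118 arrays. The related ligand upd2 had 746, 977 and 663 in X1 glands, against 32.3 and 27.4 in w1118 glands (log2 change 4.72 ± 0.21, adjusted p = 0.00228). Its receptor dome had 3547, 3852 and 2687 in X1 glands, against 302 and 507 in w1118 glands (log2 change 3.09 ± 0.31, adjusted p = 0.0116). Both sets of arrays lay apart. Socs44A, a suppressor of cytokine signalling family member, had 4424, 4772 and 4393 in X1 glands, against 616 and 558 in w1118 glands. The BTB-zinc finger repressor gene ken had 1279, 2216 and 1769 in X1 glands, against 349 and 300 in w1118 glands. Both were higher on all X1 arrays. The phosphatase gene Ptp61F, which dampens the pathway, had 136, 186 and 190 in X1 glands, against 1058 and 954 in w1118 glands (log2 change -2.58 ± 0.19, adjusted p = 0.00606), lower on every X1 array, while its other probe set had a log2 change of -0.98 and did not pass (adjusted p = 0.11). Stat92E, the pathway's transcription factor, had a log2 change of -1.36 and did not pass (adjusted p = 0.0775), nor did the gene et of the same list (log2 change 3.05, adjusted p = 0.0627). Dependent on single arrays were the calls of dome (without X1 replicate 2, 2.98) and ken (without X1 replicate 3 or w1118 replicate 1 or 2, 2.29 to 2.51). With floors of 1 and 64, upd1 had log2 changes of 9.17 and 6.43.

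In the JNK list 8 of 19 measured genes were called higher and 2 lower (with 1 array left out 2 to 8 and 1 to 2), with a median log2 change of 0.26, or 0.02 after quantile normalization. The counts higher and lower were 8 and 2 without X1 replicate 1, 3 and 2 without X1 replicate 2, 2 and 1 without X1 replicate 3, 4 and 1 without w1118 replicate 1 and 4 and 1 without w1118 replicate 2. Among the 18 of its genes that averaged at least 100 in the brighter group, 7 rose and 2 fell. Ets21C, an ETS factor gene that JNK activates, had 1021, 1061 and 810 in X1 glands, against 29.8 and 26.9 in w1118 glands (log2 change 5.08 ± 0.15, adjusted p = 0.00132). All X1 arrays lay far above both w1118 arrays. Tab2, an adaptor of the kinase Tak1, had 5624, 5910 and 5310 in X1 glands, against 460 and 634 in w1118 glands, with a log2 change of 3.38. The tumour necrosis factor gene egr had 1006, 2167 and 1987 in X1 glands, against 216 and 167 in w1118 glands (log2 change 3.10 ± 0.43, adjusted p = 0.0223). X1 replicate 1 was the lowest X1 array of egr and still above w1118. The other probe set of egr had a log2 change of 2.95 and did not pass (adjusted p = 0.0569). The relaxin-like hormone gene Ilp8 had 2999, 3809 and 3523 in X1 glands, against 612 and 392 in w1118 glands, and its 3 X1 arrays were closer to each other than to w1118. The Fos gene kay rose by its brightest probe set (log2 change 1.20 ± 0.13, adjusted p = 0.0139). Its other probe set fell (log2 change -2.26, adjusted p = 0.0317), so its direction is not settled. The kinase gene bsk, which is JNK itself, had 481, 239 and 248 in X1 glands, against 277 and 294 in w1118 glands, with overlapping groups and a log2 change of 0.10 (adjusted p = 0.92). The JNK phosphatase gene puc had a log2 change of -0.82 and did not pass (adjusted p = 0.251). Traf4, an adaptor upstream of the kinases, fell by its brightest probe set (log2 change -2.83 ± 0.19, adjusted p = 0.00498), while its other probe set had 0.12 (adjusted p = 0.625). The kinase gene msn also fell, with 1174, 1768 and 1309 in X1 glands, against 4657 and 4484 in w1118 glands (log2 change -1.71 ± 0.21, adjusted p = 0.0176). The omission of an array ended the calls of egr (without X1 replicate 2 or 3 or w1118 replicate 1 or 2, 2.90 to 3.29), Ilp8 (without X1 replicate 2 or 3, 2.73 to 2.79), kay (without X1 replicate 2 or 3, 1.20 to 1.26) and msn (without X1 replicate 3 or w1118 replicate 1 or 2, -1.74 to -1.67). Scaling the arrays differently ended the calls of kay (quantile 0.70) and msn (hybridization -1.04).

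**Figure D3:**
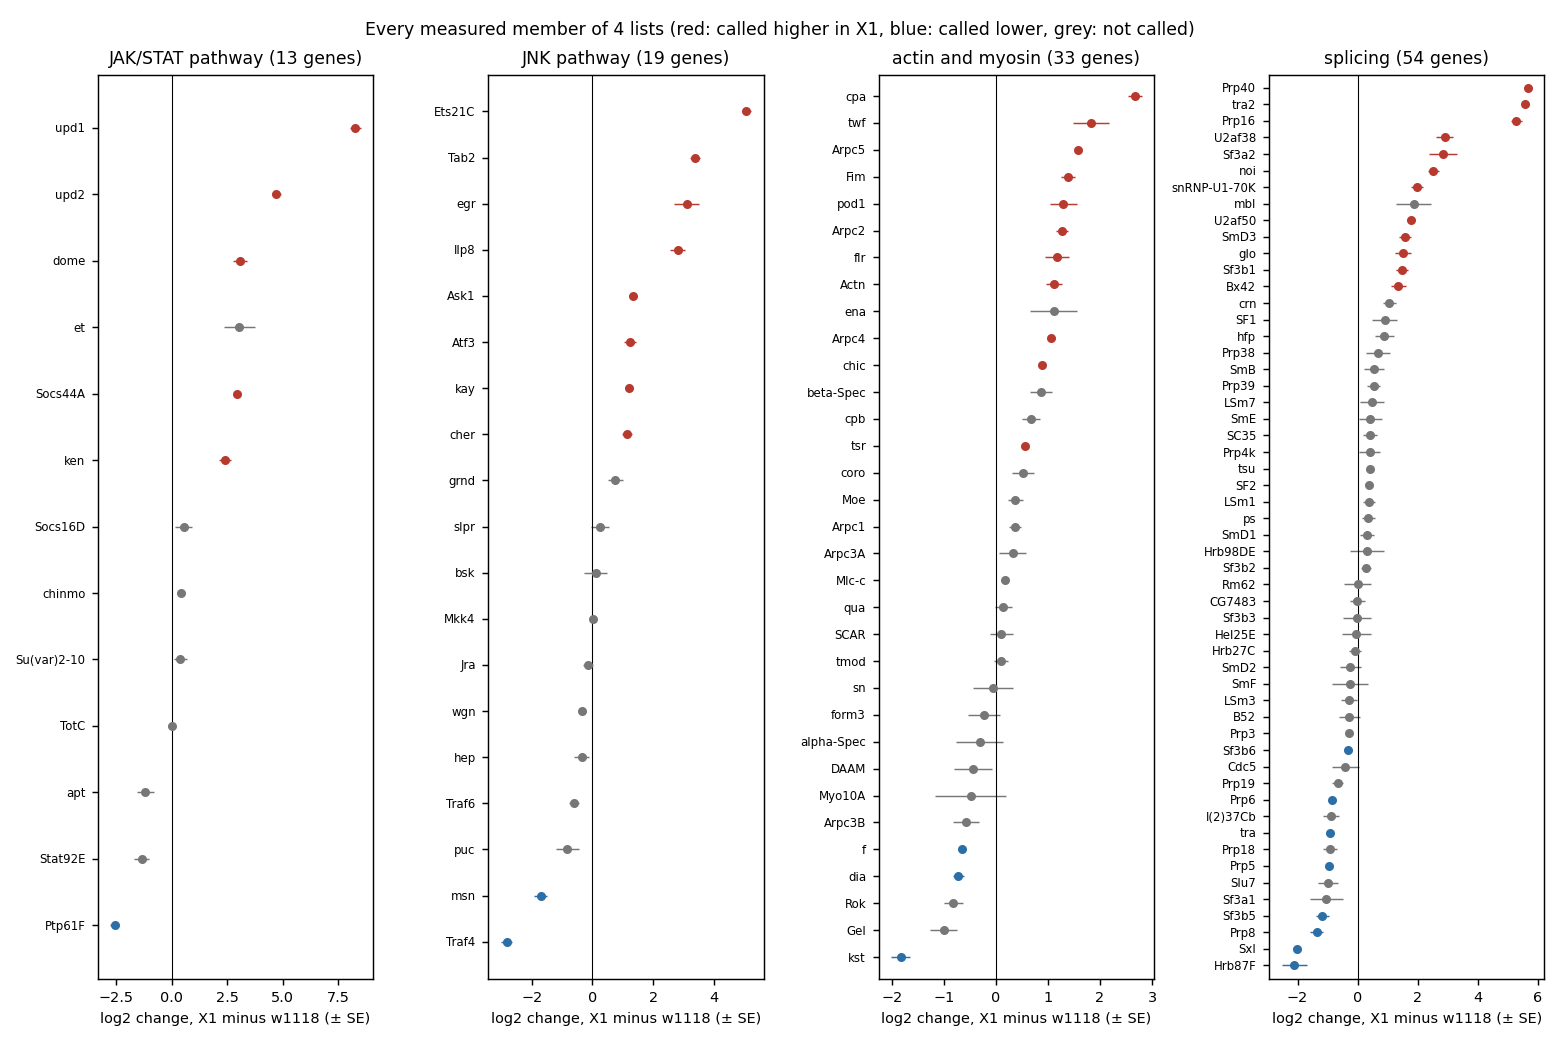
Log2 change, X1 minus w1118, with its standard error for every measured member of the JAK/STAT, JNK, actin and myosin, and splicing lists. Red marks genes called higher, blue called lower and grey not called.

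In the EGF, PVF and FGF receptor list 1 of 26 measured genes was called higher and 5 lower (with median scaling 3 and 4, with hybridization scaling 5 and 4, with 1 array left out 1 to 2 and 3 to 9). The receptor gene Egfr had 40, 36.8 and 45.9 in X1 glands, against 262 and 198 in w1118 glands (log2 change -2.48 ± 0.18, adjusted p = 0.00545). The docking adaptor gene dos had 6250, 5727 and 5645 in X1 glands, against 381 and 437 in w1118 glands (log2 change 3.85 ± 0.09, adjusted p = 0.000872). The groups did not overlap in either gene. In the Hedgehog list 1 of 14 measured genes was called higher and 6 lower (with hybridization scaling 1 and 1, with 1 array left out 0 to 1 and 3 to 6), and the median log2 change was -0.99, the lowest of all 43 lists. The counts higher and lower were 1 and 6 without X1 replicate 1, 0 and 3 without X1 replicate 2, 0 and 4 without X1 replicate 3, 0 and 3 without w1118 replicate 1 and 0 and 3 without w1118 replicate 2. Su(fu), which restrains the pathway's transcription factor, had 20.3, 21.8 and 21.4 in X1 glands, against 245 and 224 in w1118 glands (log2 change -3.47 ± 0.07, adjusted p = 0.000678). The gene of that factor, ci, had 135, 139 and 142 in X1 glands, against 329 and 282 in w1118 glands. The kinesin-like scaffold gene cos fell less (log2 change -1.04 ± 0.10, adjusted p = 0.0111). Only the glypican gene dlp rose (log2 change 1.76 ± 0.33, adjusted p = 0.0428). Calls that ended when 1 array was omitted were those of cos (without X1 replicate 2 or 3, -1.03 to -1.01) and dlp (without X1 replicate 2 or 3 or w1118 replicate 1 or 2, 1.57 to 1.76). Scaling also ended the calls of ci (hybridization -0.47) and cos (hybridization -0.36).

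In the Notch list 3 of 16 measured genes were called higher and 1 lower (after quantile normalization 3 and 3, with hybridization scaling 4 and 0, with 1 array left out 2 to 4 and 1 to 2), with the target repressor gene E(spl)mbeta-HLH at 2872, 3219 and 3006 in X1 glands, against 95.8 and 80.8 in w1118 glands (log2 change 5.11 ± 0.11, adjusted p = 0.00076). Both w1118 arrays lay far below. The metalloprotease gene kuz, which cleaves Notch, fell (log2 change -0.92 ± 0.07, adjusted p = 0.00687). In the Wnt list, of whose 29 genes 9 were measured, 3 of 9 measured genes were called higher and 1 lower (with hybridization scaling 3 and 0, with 1 array left out 2 to 3 and 0 to 1). The ligand gene Wnt6 had 638, 698 and 589 in X1 glands, against 58.1 and 54.8 in w1118 glands (log2 change 3.50 ± 0.09, adjusted p = 0.00106). The casein kinase gene gish fell (log2 change -1.23 ± 0.17, adjusted p = 0.0217). In the BMP and activin list 3 of 21 measured genes were called higher and 3 lower (with median scaling 3 and 1, with hybridization scaling 3 and 1, with 1 array left out 2 to 4 and 0 to 3). The BMP type II receptor gene wit had 1851, 3009 and 2371 in X1 glands, against 51.9 and 81.4 in w1118 glands (log2 change 5.19 ± 0.32, adjusted p = 0.00426). Smox, the activin Smad, had 814, 1314 and 1194 in X1 glands, against 121 and 151 in w1118 glands. Their X1 arrays were all higher, by at least 5 times the highest w1118 array. The ligand gene myo had 14.8, 37.9 and 26.6 in X1 glands, against 284 and 248 in w1118 glands (log2 change -3.39 ± 0.42, adjusted p = 0.0186). In the Hippo list 0 of 16 measured genes were called higher and 1 lower (with median scaling 2 and 1, with hybridization scaling 1 and 1, with 1 array left out 0 to 1 and 1 to 2), the falling gene being Rassf, an antagonist of the kinase Hippo, with 300, 300 and 298 in X1 glands, against 1149 and 1203 in w1118 glands (log2 change -1.97 ± 0.04, adjusted p = 0.000796). With an array left out, the adjusted p exceeded the threshold for gish (without X1 replicate 1 or 2 or 3 or w1118 replicate 1, -1.30 to -1.04), myo (without X1 replicate 3 or w1118 replicate 1 or 2, -3.49 to -3.29) and Smox (without X1 replicate 3 or w1118 replicate 1 or 2, 2.84 to 3.17). Another scaling ended the calls of gish (hybridization -0.56) and kuz (hybridization -0.25). With floors of 1 and 64, myo had log2 changes of -3.43 and -2.05.

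In the insulin and TOR list 5 of 27 measured genes were called higher and 6 lower (with hybridization scaling 6 and 0, with 1 array left out 2 to 6 and 1 to 8). ImpL2, a secreted antagonist of insulin-like peptides, had 7896, 9110 and 8254 in X1 glands, against 231 and 302 in w1118 glands (log2 change 4.99 ± 0.15, adjusted p = 0.00132), without overlap. The receptor gene InR had 1458, 1217 and 1110 in X1 glands, against 370 and 329 in w1118 glands. AMPKalpha, the catalytic subunit of the energy sensor kinase, had 1874, 2324 and 1885 in X1 glands, against 363 and 332 in w1118 glands. Both rose on every X1 array. The TOR inhibitor gene scyl had 1067, 2145 and 1606 in X1 glands, against 6947 and 6626 in w1118 glands (log2 change -2.14 ± 0.34, adjusted p = 0.031). The transcription factor gene foxo had 30, 19.6 and 18.4 in X1 glands, against 67.9 and 88 in w1118 glands. X1 replicate 1 was the lowest array for scyl and the highest X1 array for foxo. Dependent on single arrays were the calls of foxo (without X1 replicate 2 or 3 or w1118 replicate 1 or 2, -1.99 to -1.62), InR (without w1118 replicate 2, 1.76) and scyl (without X1 replicate 2 or 3 or w1118 replicate 1 or 2, -2.37 to -2.10). Scaling the arrays differently ended the calls of foxo (quantile -1.60, median -1.58, hybridization -1.13) and scyl (hybridization -1.47).

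In the splicing list 12 of 54 measured genes were called higher and 8 lower (with median scaling 14 and 4, with hybridization scaling 14 and 2, with 1 array left out 5 to 14 and 3 to 8), with a median log2 change of 0.33. The counts higher and lower were 14 and 8 without X1 replicate 1, 5 and 3 without X1 replicate 2, 5 and 3 without X1 replicate 3, 6 and 4 without w1118 replicate 1 and 7 and 3 without w1118 replicate 2. Among the 50 of its genes that averaged at least 100 in the brighter group, 12 rose and 6 fell. The U1-associated factor gene Prp40 had 3027, 3451 and 2827 in X1 glands, against 56.9 and 64.1 in w1118 glands (log2 change 5.68 ± 0.12, adjusted p = 0.000779). The sex-determination splicing regulator gene tra2 had 5951, 6670 and 6240 in X1 glands, against 123 and 140 in w1118 glands (log2 change 5.58 ± 0.09, adjusted p = 0.000572). The helicase gene Prp16 had 1440, 1863 and 1655 in X1 glands, against 36.9 and 48.8 in w1118 glands (log2 change 5.27 ± 0.19, adjusted p = 0.00162). These 3 were each over 30-fold higher. Sf3a2, a U2 particle subunit, was more spread, with 790, 1975 and 1500 in X1 glands, against 181 and 190 in w1118 glands. Among the falls, Hrb87F, an RNA-binding protein of the hnRNP family, had 222, 282 and 237 in X1 glands, against 704 and 1613 in w1118 glands (log2 change -2.12 ± 0.42, adjusted p = 0.0487), with the 2 w1118 arrays far from each other. Sxl, the sex-determination splicing repressor gene, had 141, 143 and 156 in X1 glands, against 626 and 578 in w1118 glands (log2 change -2.04 ± 0.07, adjusted p = 0.0017). Of its other 2 probe sets, 1 fell (-2.08) and 1 did not pass (-1.16). The omission of an array ended the calls of Hrb87F (without X1 replicate 1 or 2 or 3 or w1118 replicate 2, -2.22 to -1.52) and Sf3a2 (without X1 replicate 2 or 3 or w1118 replicate 1 or 2, 2.56 to 2.88). A change of scaling ended the call of Hrb87F (median -1.89, hybridization -1.45).

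In the mRNA decay and small RNA list 0 of 19 measured genes were called higher and 4 lower (with 1 array left out 0 to 1 and 2 to 5). Upf2, of nonsense-mediated decay, had 14.1, 26.5 and 29.9 in X1 glands, against 145 and 113 in w1118 glands (log2 change -2.46 ± 0.34, adjusted p = 0.0233). The microRNA processing cofactor gene pasha had 45, 44 and 34.5 in X1 glands, against 179 and 191 in w1118 glands. The gene r2d2, a partner of Dicer in RNA interference, had 85.2, 70.4 and 74.9 in X1 glands, against 306 and 291 in w1118 glands. X1 arrays lay below w1118 arrays for each. In the nuclear pore and transport list 3 of 39 measured genes were called higher and 3 lower (after quantile normalization 3 and 5, with median scaling 5 and 3, with hybridization scaling 5 and 0, with 1 array left out 1 to 6 and 2 to 7); the importin gene Karybeta3 rose (log2 change 2.60 ± 0.13, adjusted p = 0.00266) and Nup133, a pore scaffold subunit, fell (log2 change -1.51 ± 0.10, adjusted p = 0.00453). Leaving out 1 array ended the call of Upf2 (without X1 replicate 2 or 3 or w1118 replicate 1 or 2, -2.64 to -2.28). Scaling also ended the calls of Nup133 (hybridization -0.84) and pasha (hybridization -1.51). With floors of 1 and 64, Upf2 had log2 changes of -2.52 and -1.0, and did not pass with the floor of 64 (adjusted p = 0.0566).

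Among chromatin regulators 7 of 50 measured genes were called higher and 3 lower (with median scaling 10 and 2, with hybridization scaling 9 and 0, with 1 array left out 5 to 9 and 0 to 4). Of the 38 that averaged at least 100 in the brighter group, 7 rose and 2 fell. The rises were near the share of all such genes, 18.6%. The Polycomb group gene Sce had 1020, 1576 and 1375 in X1 glands, against 25.4 and 20.3 in w1118 glands (log2 change 5.84 ± 0.24, adjusted p = 0.00209), the deacetylase gene HDAC6 had 2428, 2392 and 1741 in X1 glands, against 45.6 and 60 in w1118 glands (log2 change 5.37 ± 0.23, adjusted p = 0.00216) and the acetyltransferase gene mof had 883, 1416 and 1172 in X1 glands, against 63.3 and 63.1 in w1118 glands. HDAC1 (log2 change 3.52) and the Polycomb group gene Psc (1.59) rose less. All X1 arrays of the 5 genes were above the w1118 arrays. The histone methyltransferase gene E(z) fell (log2 change -0.92 ± 0.16, adjusted p = 0.0355). In the DNA repair list 1 of 31 measured genes was called higher and 3 lower (after quantile normalization 2 and 1, with median scaling 3 and 2, with hybridization scaling 3 and 0, with 1 array left out 0 to 2 and 0 to 3), where the excision repair gene Xpac rose (log2 change 2.64 ± 0.31, adjusted p = 0.0158). Among RNA polymerase subunits 1 of 21 measured genes was called higher and 3 lower (with median scaling 1 and 1, with hybridization scaling 1 and 0, with 1 array left out 0 to 2 and 1 to 4). The subunit gene Polr2K rose (log2 change 1.65 ± 0.15, adjusted p = 0.00892). Calls that ended when 1 array was omitted were those of E(z) (without X1 replicate 1 or 2 or w1118 replicate 1 or 2, -1.01 to -0.83), Polr2K (without w1118 replicate 1 or 2, 1.60 to 1.69), Psc (without w1118 replicate 1 or 2, 1.55 to 1.64) and Xpac (without X1 replicate 2 or 3 or w1118 replicate 1 or 2, 2.44 to 2.68). Another scaling ended the call of E(z) (hybridization -0.25).

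In the ribosome biogenesis list 2 of 42 measured genes were called higher and 3 lower (with hybridization scaling 6 and 1, with 1 array left out 0 to 2 and 1 to 3): the exosome nuclease gene Dis3 rose (log2 change 2.24 ± 0.27, adjusted p = 0.0167) and the nucleolar protein gene Surf6 fell (log2 change -3.24 ± 0.21, adjusted p = 0.00455), with 15.8, 23.9 and 19.9 in X1 glands, against 200 and 173 in w1118 glands. Among translation factors 4 of 47 measured genes were called higher and 7 lower (after quantile normalization 4 and 14, with median scaling 8 and 2, with hybridization scaling 5 and 0, with 1 array left out 1 to 3 and 0 to 7). Subunits of eIF2B, the exchange factor of initiation factor eIF2, differed: eIF2Balpha rose (log2 change 1.94 ± 0.25, adjusted p = 0.0197), and eIF2Bbeta (log2 change -0.34), eIF2Bdelta (-0.57) and eIF2Bepsilon (-0.85) fell, a grouping made after the values were seen. With hybridization scaling eIF2Bbeta and eIF2Bdelta changed sign, to 0.33 and 0.10. Of the release factors, eRF1 had 1992, 2315 and 2054 in X1 glands, against 4894 and 4025 in w1118 glands and fell, while eRF3 had 2028, 1899 and 1754 in X1 glands, against 666 and 575 in w1118 glands and rose. No overlap occurred in either. Of 32 aminoacyl-tRNA synthetase genes 0 rose and 5 fell (with hybridization scaling 2 and 0, with 1 array left out 0 to 1 and 1 to 4), the named one being HisRS (log2 change -0.71 ± 0.08, adjusted p = 0.0134). In the mitochondrial ribosomal protein list 8 of 69 measured genes were called higher and 4 lower (after quantile normalization 10 and 1, with median scaling 11 and 1, with hybridization scaling 14 and 0, with 1 array left out 3 to 8 and 1 to 12). There mRpL36 had 953, 1226 and 1381 in X1 glands, against 60.8 and 53.9 in w1118 glands (log2 change 4.36 ± 0.20, adjusted p = 0.00228), mRpL28 had a log2 change of 3.55 and mRpL38 fell (log2 change -1.57 ± 0.16, adjusted p = 0.0117). With an array left out, the adjusted p exceeded the threshold for Dis3 (without X1 replicate 2 or 3 or w1118 replicate 1 or 2, 2.12 to 2.29), eIF2Balpha (without X1 replicate 1 or 2 or 3, 1.88 to 2.01), eIF2Bbeta (without X1 replicate 2 or 3, -0.35 to -0.34), eIF2Bdelta (without X1 replicate 1 or 2 or 3 or w1118 replicate 1 or 2, -0.64 to -0.50), eIF2Bepsilon (without X1 replicate 2 or 3 or w1118 replicate 1 or 2, -0.90 to -0.82), eRF1 (without X1 replicate 2 or 3 or w1118 replicate 1, -1.13 to -0.93), HisRS (without X1 replicate 2 or w1118 replicate 1 or 2, -0.72 to -0.69) and mRpL38 (without X1 replicate 3 or w1118 replicate 1 or 2, -1.64 to -1.50). Scaling the arrays differently ended the calls of eIF2Bbeta (median -0.12), eIF2Bdelta (median -0.34), eIF2Bepsilon (hybridization -0.18), eRF1 (hybridization -0.40), HisRS (hybridization -0.04) and mRpL38 (hybridization -0.90). With floors of 1 and 64, Surf6 had log2 changes of -3.25 and -1.54.

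In the ER folding list 1 of 30 measured genes was called higher and 3 lower (after quantile normalization 1 and 6, with hybridization scaling 1 and 0, with 1 array left out 1 to 3 and 0 to 6). The stress sensor kinase gene PEK rose (log2 change 0.64 ± 0.05, adjusted p = 0.00717). The gene prtp, an ER protein of the disulfide isomerase family, fell (log2 change -1.35 ± 0.13, adjusted p = 0.0111). The chaperone gene Hsc70-3, the fly BiP, had 5884, 6688 and 5969 in X1 glands, against 7113 and 5290 in w1118 glands, with overlapping groups. In the translocon and glycosylation list 3 of 36 measured genes were called higher and 5 lower (with median scaling 5 and 2, with hybridization scaling 5 and 0, with 1 array left out 1 to 3 and 0 to 10). Sec61beta, a subunit of the translocation channel, had 3815, 3564 and 3463 in X1 glands, against 1046 and 827 in w1118 glands (log2 change 1.96 ± 0.13, adjusted p = 0.00473). The glycosylation enzyme gene wol fell (log2 change -1.31 ± 0.19, adjusted p = 0.0258). In the list of coat proteins and Golgi factors 5 of 38 measured genes were called higher and 6 lower (with median scaling 7 and 3, with hybridization scaling 6 and 0, with 1 array left out 2 to 4 and 2 to 7). The coat subunit gene Sec13 had 2111, 2223 and 2292 in X1 glands, against 461 and 390 in w1118 glands (log2 change 2.38 ± 0.10, adjusted p = 0.00208) and Cog6, of the Golgi tethering complex, fell (log2 change -1.17 ± 0.21, adjusted p = 0.0388). In the Rab, syntaxin and exocyst list 3 of 32 measured genes were called higher and 4 lower (with median scaling 5 and 3, with hybridization scaling 5 and 1, with 1 array left out 2 to 4 and 1 to 6), the small GTPase gene Rab32 rising (log2 change 3.28 ± 0.24, adjusted p = 0.00559) and the exocyst subunit gene Sec10 falling (log2 change -1.77 ± 0.28, adjusted p = 0.0295). Vamp7, a fusion protein of the late endocytic route, rose as well (log2 change 1.34 ± 0.09, adjusted p = 0.00482). Dependent on single arrays were the calls of Cog6 (without X1 replicate 2 or 3 or w1118 replicate 1 or 2, -1.35 to -0.99), prtp (without X1 replicate 3 or w1118 replicate 1 or 2, -1.42 to -1.28), Sec10 (without X1 replicate 2 or 3 or w1118 replicate 1 or 2, -1.91 to -1.64) and wol (without X1 replicate 1 or 2 or 3, -1.33 to -1.27). A change of scaling ended the calls of Cog6 (hybridization -0.50), prtp (hybridization -0.68), Sec10 (hybridization -1.10) and wol (median -1.08, hybridization -0.64).

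In the lysosome and V-ATPase list 15 of 62 measured genes were called higher and 3 lower (after quantile normalization 7 and 9, with 1 array left out 4 to 11 and 1 to 4). The counts higher and lower were 11 and 4 without X1 replicate 1, 4 and 3 without X1 replicate 2, 4 and 1 without X1 replicate 3, 6 and 3 without w1118 replicate 1 and 6 and 2 without w1118 replicate 2. Among the 40 of its genes that averaged at least 100 in the brighter group, 13 rose and 3 fell. The beta-hexosaminidase gene Hexo2 had 2098, 1623 and 1305 in X1 glands, against 52.3 and 56.4 in w1118 glands (log2 change 4.92 ± 0.24, adjusted p = 0.00261). GILT1, a lysosomal thiol reductase, had 4988, 3754 and 3602 in X1 glands, against 581 and 563 in w1118 glands (log2 change 2.83 ± 0.18, adjusted p = 0.00426). All 3 GILT genes rose, or 2 of them under each of the 3 other scalings and with any 1 array left out. Of 31 V-ATPase subunit genes, which acidify the lysosome, 8 rose and 0 fell, or 3 and 2 after quantile normalization and 1 to 6 and 0 to 1 with 1 array left out, the lowest without X1 replicate 2 or 3, and the changes ran from -1.28 to 1.80 with a median of 0.21. The rises were small: VhaPPA1-1 had 2345, 2672 and 2437 in X1 glands, against 1207 and 1107 in w1118 glands, Vha26 had a log2 change of 1.00 and Vha16-1 of 0.66. X1 and w1118 arrays did not overlap in these 3. Cln3, a lysosomal membrane protein gene, rose with a wide spread (log2 change 2.14 ± 0.42, adjusted p = 0.0473). The sterol-binding Npc2 genes split: of 8, 1 rose and 3 fell, or 0 and 2 after quantile normalization and 1 and 1 with hybridization scaling. Npc2e had 44.7, 45.1 and 43.5 in X1 glands, against 768 and 1209 in w1118 glands (log2 change -4.44 ± 0.22, adjusted p = 0.00289), Npc2b fell by a log2 change of -2.15 and Npc2g by -1.57. Npc2a rose (0.87). The GILT, V-ATPase and Npc2 groupings were made after the values were seen. The omission of an array ended the calls of Cln3 (without X1 replicate 1 or 2 or 3 or w1118 replicate 1 or 2, 1.65 to 2.64), Npc2a (without X1 replicate 1 or 2 or 3 or w1118 replicate 2, 0.63 to 0.90), Npc2b (without X1 replicate 3 or w1118 replicate 1 or 2, -2.20 to -2.10), Npc2g (without X1 replicate 1 or 3 or w1118 replicate 1 or 2, -1.73 to -1.48), Vha16-1 (without X1 replicate 2 or 3, 0.64 to 0.68) and Vha26 (without X1 replicate 2 or 3 or w1118 replicate 1 or 2, 0.91 to 1.09). Scaling also ended the calls of Cln3 (quantile 1.89), Npc2a (quantile 0.38), Npc2b (hybridization -1.48), Npc2g (quantile -1.46, median -1.35, hybridization -0.90), Vha16-1 (quantile 0.26) and Vha26 (quantile 0.53).

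In the ubiquitin list 7 of 47 measured genes were called higher and 6 lower (after quantile normalization 6 and 10, with median scaling 8 and 4, with hybridization scaling 9 and 1, with 1 array left out 2 to 8 and 1 to 10). The deubiquitinase gene Usp47 had 2790, 3602 and 2559 in X1 glands, against 388 and 398 in w1118 glands (log2 change 2.91 ± 0.18, adjusted p = 0.00407). Its relative Usp32 fell (log2 change -1.35 ± 0.25, adjusted p = 0.0411). Among serpins, many of which inhibit secreted proteases, 3 of 27 measured genes were called higher and 5 lower (with hybridization scaling 3 and 2, with 1 array left out 1 to 3 and 3 to 6). Spn28Dc had 7927, 8697 and 7428 in X1 glands, against 1904 and 1601 in w1118 glands (log2 change 2.20 ± 0.12, adjusted p = 0.00332) and Spn55B had 3253, 5543 and 5096 in X1 glands, against 1021 and 1357 in w1118 glands. Spn77Ba, which limits melanization in the trachea, had 162, 210 and 247 in X1 glands, against 1327 and 1250 in w1118 glands (log2 change -2.66 ± 0.21, adjusted p = 0.00693). Spn43Aa had 762, 586 and 577 in X1 glands, against 3990 and 3174 in w1118 glands. Each of these 4 separated the groups completely, which the naming rule required of Spn28Dc and Spn77Ba. Leaving out 1 array ended the calls of Spn55B (without X1 replicate 2 or 3 or w1118 replicate 1 or 2, 1.73 to 2.14), Spn77Ba (without w1118 replicate 1 or 2, -2.71 to -2.62) and Usp32 (without X1 replicate 2 or 3 or w1118 replicate 1 or 2, -1.49 to -1.21). Another scaling ended the call of Usp32 (hybridization -0.68).

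**Figure D4:**
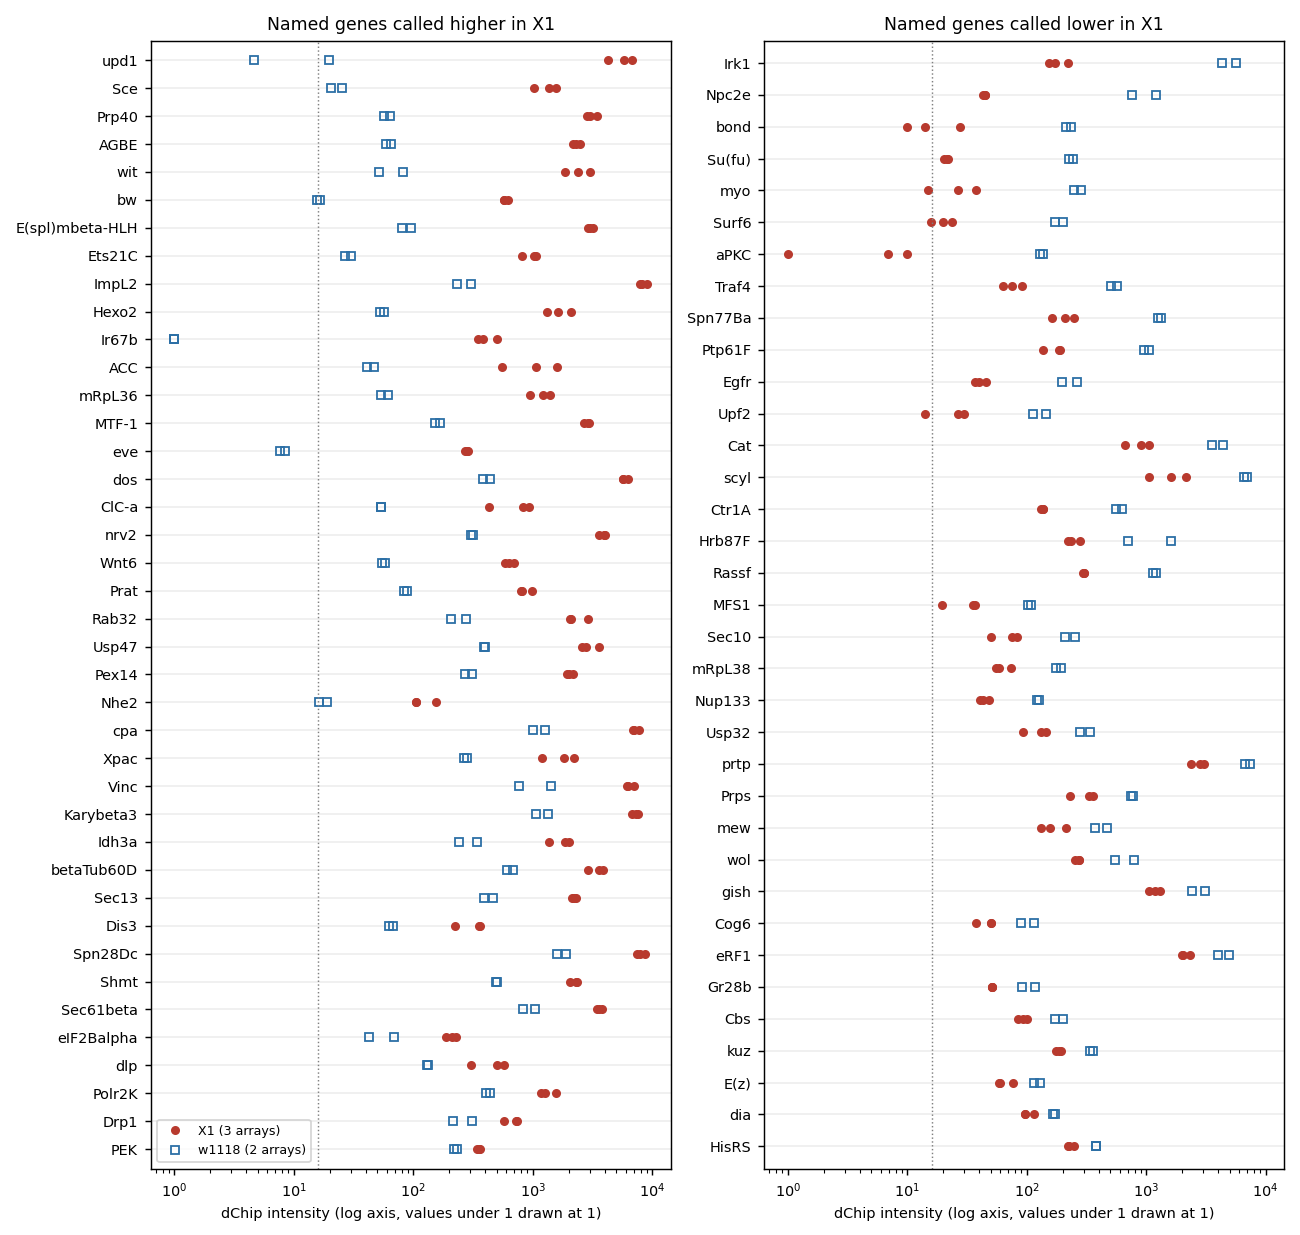
Intensity (log axis) of each named gene on the 3 X1 arrays (red circles) and the 2 w1118 arrays (blue squares), called higher at left and lower at right. The dotted line is the floor of 16, and in each gene the 2 groups do not overlap, as the naming rule required.

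In energy metabolism, 4 of 20 measured genes were called higher and 0 lower (with 1 array left out 1 to 5 and 0 to 1) in the list of the tricarboxylic acid cycle and pyruvate. Of the 19 that averaged at least 100 in the brighter group, 4 rose and 0 fell. The rises were near the share of all such genes, 18.6%. Idh, a cytosolic isocitrate dehydrogenase that makes NADPH, had 7966, 8781 and 7583 in X1 glands, against 1401 and 1345 in w1118 glands (log2 change 2.56 ± 0.08, adjusted p = 0.00138). Idh3a, of the mitochondrial enzyme, had 1997, 1847 and 1358 in X1 glands, against 239 and 339 in w1118 glands (log2 change 2.59 ± 0.26, adjusted p = 0.0116). In the pentose phosphate, trehalose and glycogen list 3 of 14 measured genes were called higher and 0 lower (after quantile normalization 3 and 1, with 1 array left out 2 to 3 and 0 to 3). Of the 8 that averaged at least 100 in the brighter group, 2 rose and 0 fell. The glycogen branching enzyme gene AGBE had 2158, 2472 and 2292 in X1 glands, against 65.6 and 59.4 in w1118 glands (log2 change 5.21 ± 0.09, adjusted p = 0.000636). The phosphoglucomutase gene Pgm2a had 1025, 918 and 764 in X1 glands, against 181 and 188 in w1118 glands. In AGBE the lowest X1 array was over 30 times the highest w1118 array. With an array left out, the adjusted p exceeded the threshold for Idh3a (without X1 replicate 2 or w1118 replicate 1, 2.33 to 2.53).

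In the fatty acid and phospholipid synthesis list 5 of 26 measured genes were called higher and 3 lower (after quantile normalization 5 and 6, with hybridization scaling 5 and 1, with 1 array left out 1 to 6 and 0 to 4). The acetyl-CoA carboxylase gene ACC had 557, 1603 and 1072 in X1 glands, against 40.9 and 47 in w1118 glands (log2 change 4.49 ± 0.52, adjusted p = 0.0157), with X1 replicate 1 the lowest X1 array. SCAP, an activator of lipid synthesis genes, had 470, 473 and 451 in X1 glands, against 72.4 and 94.8 in w1118 glands. The fatty acid elongase gene bond had 10, 14.1 and 27.4 in X1 glands, against 213 and 236 in w1118 glands (log2 change -3.55 ± 0.31, adjusted p = 0.00824), with 2 X1 arrays under 16. In the fatty acid oxidation and peroxisome list 5 of 24 measured genes were called higher and 4 lower (with median scaling 7 and 3, with hybridization scaling 7 and 1, with 1 array left out 4 to 6 and 0 to 5). The peroxisome import genes Pex14 and Pex13 were high in X1: Pex14 had 2026, 2161 and 1948 in X1 glands, against 312 and 271 in w1118 glands, and Pex13 had 5493, 7257 and 6909 in X1 glands, against 1043 and 980 in w1118 glands, both higher on every X1 array. Of 10 measured peroxin genes (Pex), grouped after the values were seen, 3 rose and 1 fell. Their log2 changes ran from -1.11 to 2.81 with a median of -0.27. The carnitine palmitoyltransferase gene whd rose by its brightest probe set (log2 change 2.38 ± 0.12, adjusted p = 0.00277) and fell by its other one (-0.57, adjusted p = 0.0461). The catalase gene Cat had 667, 1057 and 906 in X1 glands, against 4382 and 3546 in w1118 glands (log2 change -2.19 ± 0.25, adjusted p = 0.0151). Dependent on single arrays were the calls of ACC (without X1 replicate 3 or w1118 replicate 1 or 2, 4.39 to 4.59), bond (without w1118 replicate 1 or 2, -3.63 to -3.48) and Cat (without X1 replicate 3 or w1118 replicate 1 or 2, -2.35 to -2.04). With floors of 1 and 64, bond had log2 changes of -3.84 and -1.81.

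In amino acid and folate metabolism 4 of 31 measured genes were called higher and 2 lower (with median scaling 4 and 1, with hybridization scaling 5 and 0, with 1 array left out 2 to 3 and 0 to 6). Shmt, which uses serine for folate metabolism, rose (log2 change 2.17 ± 0.08, adjusted p = 0.00162). The cystathionine beta-synthase gene Cbs fell (log2 change -1.01 ± 0.12, adjusted p = 0.0179). In nucleotide metabolism 3 of 26 measured genes were called higher and 3 lower (with median scaling 4 and 0, with hybridization scaling 4 and 0, with 1 array left out 3 to 5 and 0 to 3). Among the 16 of these genes that averaged at least 100 in the brighter group, 3 rose and 2 fell. The rises were near the share of all such genes, 18.6%. The purine synthesis genes Prat, Paics and Adss, grouped after the values were seen, rose: Prat had 976, 792 and 807 in X1 glands, against 83 and 88.2 in w1118 glands (log2 change 3.32 ± 0.12, adjusted p = 0.0017), Adss had 5175, 5861 and 5900 in X1 glands, against 776 and 742 in w1118 glands, and Paics had 2519, 2898 and 2476 in X1 glands, against 559 and 585 in w1118 glands. The phosphoribosyl pyrophosphate synthetase gene Prps, which feeds that route, fell (log2 change -1.34 ± 0.23, adjusted p = 0.0368). In metal and heme handling 4 of 34 measured genes were called higher and 5 lower (with median scaling 5 and 3, with hybridization scaling 5 and 1, with 1 array left out 3 to 6 and 1 to 8). The metal-responsive transcription factor gene MTF-1 had 2888, 2974 and 2677 in X1 glands, against 153 and 166 in w1118 glands (log2 change 4.16 ± 0.07, adjusted p = 0.000653). The copper importer gene Ctr1A had 133, 137 and 138 in X1 glands, against 626 and 562 in w1118 glands (log2 change -2.12 ± 0.07, adjusted p = 0.00133). The transferrin family gene Tsf3 and the zinc transporter gene ZnT63C rose, by log2 changes of 2.91 and 1.84. In mitochondrial import and dynamics 1 of 23 measured genes was called higher and 1 lower (after quantile normalization 1 and 0, with median scaling 2 and 0, with hybridization scaling 3 and 0, with 1 array left out 0 and 0 to 3). The fission gene Drp1 rose (log2 change 1.39 ± 0.22, adjusted p = 0.0312). The omission of an array ended the calls of Cbs (without X1 replicate 2 or 3 or w1118 replicate 1 or 2, -1.13 to -0.89), Drp1 (without X1 replicate 1 or 2 or 3 or w1118 replicate 1 or 2, 1.12 to 1.65) and Prps (without X1 replicate 1 or 3 or w1118 replicate 1 or 2, -1.47 to -1.31). Another scaling ended the calls of Cbs (median -0.78, hybridization -0.34) and Prps (median -1.12, hybridization -0.67).

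In the actin and myosin list 11 of 33 measured genes were called higher and 3 lower (after quantile normalization 9 and 5, with hybridization scaling 11 and 0, with 1 array left out 5 to 12 and 0 to 2), with a median log2 change of 0.37, or 0.02 after quantile normalization. The counts higher and lower were 12 and 2 without X1 replicate 1, 5 and 1 without X1 replicate 2, 5 and 1 without X1 replicate 3, 5 and 0 without w1118 replicate 1 and 5 and 0 without w1118 replicate 2. Among the 28 of its genes that averaged at least 100 in the brighter group, 11 rose and 1 fell. The capping protein gene cpa had 6851, 7707 and 7073 in X1 glands, against 1265 and 1014 in w1118 glands (log2 change 2.67 ± 0.13, adjusted p = 0.0026). Of 6 genes of the actin-nucleating Arp2/3 complex named Arpc, 3 rose: Arpc5 (log2 change 1.58 ± 0.06, adjusted p = 0.00195), Arpc2 (log2 change 1.27) and Arpc4 (1.05). With 1 array left out 2 to 4 of the 6 rose. The monomer-binding genes twf (1.83), chic (0.89) and tsr (0.56) also rose; tsr is cofilin and chic is profilin. Among these bright genes chic had 8584, 8520 and 8244 in X1 glands, against 4571 and 4535 in w1118 glands, a small change with tight replicates. The formin gene dia fell (log2 change -0.72 ± 0.11, adjusted p = 0.0295). In the tubulin, kinesin and dynein list 6 of 40 measured genes were called higher and 0 lower (after quantile normalization 6 and 1, with 1 array left out 2 to 4 and 0 to 2), with betaTub60D at 3840, 3583 and 2926 in X1 glands, against 607 and 680 in w1118 glands (log2 change 2.42 ± 0.15, adjusted p = 0.00437) and the microtubule minus-end protein gene Patronin higher by 2.12. Of the 26 genes of that list averaging at least 100 in the brighter group, 5 rose and 0 fell. The rises were near the share of all such genes, 18.6%. Leaving out 1 array ended the calls of Arpc2 (without X1 replicate 2 or w1118 replicate 1 or 2, 1.22 to 1.32), dia (without X1 replicate 1 or 2 or w1118 replicate 1 or 2, -0.76 to -0.68), Patronin (without X1 replicate 1 or 2 or 3 or w1118 replicate 1 or 2, 1.72 to 2.53), tsr (without X1 replicate 2 or 3, 0.56 to 0.58) and twf (without X1 replicate 2 or 3 or w1118 replicate 1 or 2, 1.65 to 1.84). Scaling the arrays differently ended the call of dia (hybridization -0.05).

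In the integrin and extracellular matrix list 7 of 27 measured genes were called higher and 3 lower (with median scaling 8 and 1, with hybridization scaling 8 and 0, with 1 array left out 3 to 8 and 1 to 4). The counts higher and lower were 8 and 4 without X1 replicate 1, 3 and 1 without X1 replicate 2, 3 and 1 without X1 replicate 3, 4 and 2 without w1118 replicate 1 and 5 and 1 without w1118 replicate 2. Among the 24 of its genes that averaged at least 100 in the brighter group, 7 rose and 3 fell. Vinc, which links integrin adhesions to actin, had 6114, 7052 and 6320 in X1 glands, against 773 and 1431 in w1118 glands (log2 change 2.62 ± 0.31, adjusted p = 0.0161). The integrin alpha subunit gene scb had 4549, 5139 and 4560 in X1 glands, against 857 and 891 in w1118 glands (log2 change 2.44 ± 0.08, adjusted p = 0.00138). The alpha subunit gene if had 547, 691 and 580 in X1 glands, against 200 and 282 in w1118 glands. The adhesion proteins Pax (2.39), Fak (1.89) and parvin (1.18) rose as well. The alpha subunit gene mew fell (log2 change -1.33 ± 0.26, adjusted p = 0.0481), and its other probe set had -1.70 (adjusted p = 0.0633). In the junction and polarity list 3 of 24 measured genes were called higher and 2 lower (with hybridization scaling 4 and 1, with 1 array left out 1 to 4 and 2 to 3). The sodium pump beta subunit gene nrv2 had 3591, 3988 and 3915 in X1 glands, against 317 and 306 in w1118 glands (log2 change 3.62 ± 0.07, adjusted p = 0.000653). The polarity kinase gene aPKC had 9.98, 0.863 and 6.94 in X1 glands, against 136 and 129 in w1118 glands by its brightest probe set, at least 8.27-fold lower as every X1 array was at or under 16 (adjusted p = 0.000508). Its other probe set fell by a log2 change of -0.43. Among homeotic and segmentation genes 2 of 24 measured genes were called higher and 3 lower (after quantile normalization 2 and 1, with median scaling 3 and 1, with hybridization scaling 3 and 0, with 1 array left out 1 to 3 and 1 to 5), with the pair-rule gene eve at 272, 281 and 289 in X1 glands, against 8.35 and 7.7 in w1118 glands, at least 17.6-fold higher (adjusted p = 0.000427). Calls that ended when 1 array was omitted were those of Fak (without X1 replicate 2 or 3 or w1118 replicate 1 or 2, 1.68 to 1.92), if (without X1 replicate 1 or 2 or 3 or w1118 replicate 1, 1.09 to 1.41), mew (without X1 replicate 2 or 3 or w1118 replicate 1 or 2, -1.50 to -1.17), parvin (without X1 replicate 2 or 3 or w1118 replicate 1 or 2, 1.07 to 1.22) and Vinc (without X1 replicate 2 or 3, 2.56 to 2.64). A change of scaling ended the call of mew (quantile -1.40, median -1.11, hybridization -0.66). With floors of 1 and 64, aPKC had log2 changes of -5.01 and -1.05, and eve had 5.13 and 2.13.

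Among solute carriers 7 of 47 measured genes were called higher and 6 lower (with hybridization scaling 11 and 0, with 1 array left out 2 to 7 and 1 to 9). The sodium-proton exchanger gene Nhe2 rose (log2 change 2.78 ± 0.22, adjusted p = 0.0072) and the transporter gene MFS1 fell (log2 change -1.84 ± 0.35, adjusted p = 0.045). Among ABC transporters 1 of 8 measured genes was called higher and 1 lower (with median scaling 2 and 1, with hybridization scaling 2 and 1, with 1 array left out 1 to 2 and 0 to 2). The eye pigment transporter gene bw had 618, 576 and 575 in X1 glands, against 15.6 and 16.5 in w1118 glands (log2 change 5.18 ± 0.06, adjusted p = 0.000427), and its other probe set rose too (3.26). The gene st, of the same pigment transporter group, had 8.4, 8.47 and 15.8 in X1 glands, against 74.6 and 119 in w1118 glands, at least 5.89-fold lower (adjusted p = 0.00903). Among ion channels 5 of 59 measured genes were called higher and 6 lower (after quantile normalization 7 and 5, with median scaling 6 and 3, with hybridization scaling 7 and 2, with 1 array left out 1 to 6 and 2 to 6). The 3 inward rectifier potassium channel genes, grouped after the values were seen, all fell, with log2 changes from -4.78 to -0.60, or 2 of them fell after quantile normalization and 1 with median or hybridization scaling. By its brightest probe set Irk1 had 154, 171 and 223 in X1 glands, against 5698 and 4332 in w1118 glands (log2 change -4.78 ± 0.23, adjusted p = 0.00262), while its other probe set had -0.08 (adjusted p = 0.47). The chloride channel gene ClC-a rose by its brightest probe set (log2 change 3.69 ± 0.41, adjusted p = 0.014) and its other had 0.20 (adjusted p = 0.827). The potassium leak channel gene sand had 309, 615 and 550 in X1 glands, against 49.7 and 44.2 in w1118 glands. With an array left out, the adjusted p exceeded the threshold for ClC-a (without X1 replicate 2 or 3 or w1118 replicate 1 or 2, 3.48 to 3.70), MFS1 (without X1 replicate 2 or 3 or w1118 replicate 1 or 2, -2.0 to -1.80), Nhe2 (without w1118 replicate 2, 2.67), sand (without X1 replicate 2 or 3 or w1118 replicate 1 or 2, 3.14 to 3.41) and st (without X1 replicate 2 or 3, -2.56). Scaling also ended the call of MFS1 (hybridization -1.17). With floors of 1 and 64, bw had log2 changes of 5.20 and 3.20, and st had -3.18 and -0.56. The call of st did not pass with the floor of 64 (adjusted p = 0.379).

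The dim list of chemoreceptor and odorant-binding genes had a median brighter group mean of 24.1, and 9 of 212 measured genes were called higher and 17 lower (with median scaling 12 and 12, with hybridization scaling 15 and 3, with 1 array left out 3 to 12 and 5 to 26). Of the list 12.3% was called, against 11.8% of all genes with a brighter group mean under 100. Ir67b, an ionotropic receptor gene, had 381, 503 and 351 in X1 glands, against 0.0354 and 0.15 in w1118 glands, at least 25.4-fold higher (adjusted p = 0.00196), and the gustatory receptor gene Gr28b fell (log2 change -1.02 ± 0.13, adjusted p = 0.0205). Dependent on single arrays was the call of Gr28b (without X1 replicate 1 or 2 or 3, -1.02). Another scaling ended the call of Gr28b (hybridization -0.35). With floors of 1 and 64, Ir67b had log2 changes of 8.67 and 2.67.

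**Figure D5:**
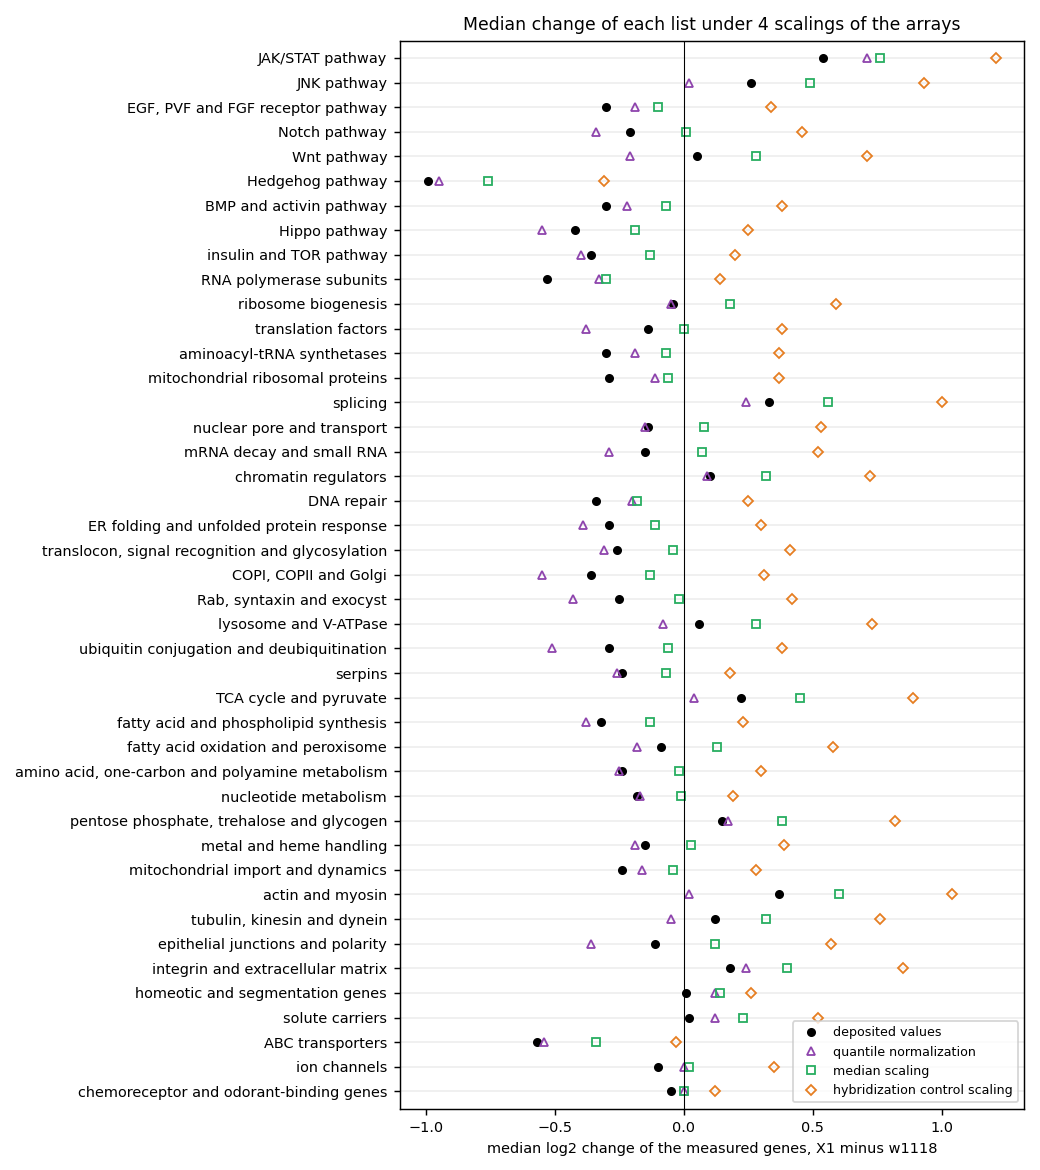
Median log2 change, X1 minus w1118, of the measured genes of each list with the deposited values (black), quantile normalization (purple), median scaling (green) and hybridization control scaling (orange). Hybridization scaling shifts every list upward, as it moves the median of all genes by 0.44.

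Across these named genes, 37 of the 75 chosen by the rule kept their call under every one of up to 15 alternative settings other than the replicate block. Line 89, the other GAL4 insertion, served to ask how far X1 differed from a second line. X1 minus line 89 called 371 probe sets (1.98%), 137 higher (0.73%) and 234 lower (1.25%). At gene level 279 were called (2.33%), 118 higher (0.985%) and 161 lower (1.34%). Of the 1132 genes higher in X1 than in w1118, 109 were also higher and 1 lower in X1 than in line 89. Of the 1378 lower ones, 120 were also lower and 0 higher. Both comparisons share the X1 arrays, so these overlaps are a description only.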

How the data were processed

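Salivary gland RNA was measured on 7 arrays, of which the 3 X1 and 2 w1118 arrays were compared and 2 line 89 arrays gave a side comparison. The authors deposited dChip expression values, an intensity on a linear scale, normalized to 1 baseline array with a median intensity of 145 per the series text. Sources used here do not name the dChip version, its model or its treatment of low values. The table held 18952 probe sets in columns of the 7 samples; 183 control probe sets were left out of the tests. Of the 18769 fly probe sets, 13647 had 1 gene symbol, 402 several and 4720 none in the platform annotation, which can be old, and 13544 matched the reference gene table of Release 6.

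Values under 16 were raised to 16 and taken as log2. Groups were compared with limma 3.58.1 under R 4.3.3 (lmFit and eBayes, two-sided, no covariates), with Benjamini-Hochberg adjustment over all fly probe sets and a call at an adjusted p under 0.05. Each p measures the spread between these arrays, whose number limits the precision. A gene entered with its brightest probe set by mean log2 value. Folds against a group wholly at or under 16 are lower bounds. X1 against line 89 came from 1 limma fit of 7 arrays in 3 groups, in which both copy numbers of line 89 counted as replicates. The procedure was tested on simulated data of X1 against w1118 with 200 changed among 18769 probe sets. Recovered were 15.0% of log2 rises of 1, 5.0% of falls of 1, 42.5% of rises and 42.5% of falls of 2, and 65.0% of rises of 3. Of the unchanged probe sets 4 were called. The simulated spread came from the X1 arrays alone, and far fewer probe sets were changed than the 18.1% called in the data. These rates are therefore not the power of the real comparison.

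The members and lists were chosen with earlier results of these data known. Named genes were, in each list, the largest rise and the largest fall among called genes that averaged at least 100 in the brighter group and whose groups did not overlap. Deviations from the group means of same-numbered X1 and w1118 arrays had correlations of -0.049 and -0.012. The deviations of the 2 w1118 arrays from their mean are equal and opposite. These correlations therefore cannot tell whether the replicate numbers pair the arrays. Alternatives covered scaling, floors, a filter on dim probe sets, the variance model, a replicate block, the threshold and leaving out each array. A description of GAL4 sites in promoters was planned and not run, as promoter sequences were not used here.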

Additional observations from a re-analysis of the deposited data

Results flagged for a closer look

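Some genes described above also differed between X1 and line 89 in the fit of 7 arrays in 3 groups (limma, adjusted over all fly probe sets). Su(fu) had 20.3, 21.8 and 21.4 in X1 glands, against 224 with 2 copies and 214 with 1 copy of line 89, a log2 difference of -3.37 (adjusted p = 0.00184). Irk1 had 154, 171 and 223 in X1 glands, against 1892 with 2 copies and 4640 with 1 copy of line 89, a log2 difference of -4.04 (adjusted p = 0.0331). eve had 272, 281 and 289 in X1 glands, against 23.2 with 2 copies and 2.12 with 1 copy of line 89, a log2 difference of 3.86 (adjusted p = 0.00913). In these first 3 genes every X1 array lay on one side of both line 89 arrays. Shmt had 2307, 2326 and 2058 in X1 glands, against 722 with 2 copies and 475 with 1 copy of line 89, a log2 difference of 1.93 (adjusted p = 0.0324). Spn77Ba had 162, 210 and 247 in X1 glands, against 647 with 2 copies and 769 with 1 copy of line 89, a log2 difference of -1.80 (adjusted p = 0.034). Usp47 had 2790, 3602 and 2559 in X1 glands, against 1071 with 2 copies and 915 with 1 copy of line 89, a log2 difference of 1.58 (adjusted p = 0.034). Shmt and Usp47 were higher and Spn77Ba lower in X1. Pax had 2492, 2879 and 2600 in X1 glands, against 1130 with 2 copies and 793 with 1 copy of line 89, a log2 difference of 1.49 (adjusted p = 0.0446). Pex14 had 2026, 2161 and 1948 in X1 glands, against 845 with 2 copies and 712 with 1 copy of line 89, a log2 difference of 1.40 (adjusted p = 0.0252). dia had 96.6, 96.3 and 116 in X1 glands, against 212 with 2 copies and 199 with 1 copy of line 89, a log2 difference of -1.0 (adjusted p = 0.034). Pax and Pex14 were higher and dia lower in X1. Cbs had 101, 93.9 and 84.2 in X1 glands, against 186 with 2 copies and 163 with 1 copy of line 89, a log2 difference of -0.91 (adjusted p = 0.0499). tsr had 9830, 9242 and 9401 in X1 glands, against 5899 with 2 copies and 5584 with 1 copy of line 89, a log2 difference of 0.73 (adjusted p = 0.0329). The arrays of line 89 differ in copy number, and X1 and line 89 were both shocked at 9 h.

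Outside the tested probe sets, 2 control probe sets that the annotation used here pairs with no gene were high in X1 and low in w1118. The first had intensities of 1407, 2348 and 1854 in X1 glands, against 14.4 and 14.1 in w1118 glands, a log2 difference of 6.84, and had 2367 with 2 copies and 417 with 1 copy of line 89. The second had 596, 467 and 519 in X1 glands, against 0.782 and 0.0633 in w1118 glands, a log2 difference of 5.03, and had 1495 and 1010 with 2 copies and 1 copy of line 89. All 5 arrays labelled as GAL4 lines were thus above both arrays labelled w1118 in each.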

How the results depend on the processing

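With the deposited scaling 1407 probe sets were called higher and 1997 lower in X1 than in w1118. Hybridization control scaling left 537 lower, a floor of 1 left 1201 lower, a floor of 64 left 720 higher and 674 lower, and an adjusted p under 0.01 left 602 and 579. Leaving out 1 array gave 692 to 1939 higher and 848 to 2231 lower. The highest of both counts came without X1 replicate 1, the lowest rises without w1118 replicate 1 and the lowest falls without X1 replicate 2. Quantile normalization, median scaling, the filter on dim probe sets, another variance model and all 7 arrays in 3 groups, which was added after the data were seen, stayed within 1.5 times both counts. All 7 arrays in 4 groups gave the same calls by construction. The replicate block, in limma, called 0 higher and 0 lower, with 4491 probe sets at an unadjusted p under 0.05. It ended the calls of all named genes. Whether the replicate numbers pair the samples is not known. X1 against line 89 called 408 probe sets higher and 730 lower without the 2-copy array, and 786 lower without the 1-copy array, where the lone line 89 array is assumed to vary like the other groups. With hybridization control scaling eIF2Bbeta changed sign to 0.33 and eIF2Bdelta to 0.10. Of the 139 named called genes, 65 kept their call under all alternatives other than the replicate block. A floor of 64 ended the calls of 42 of the 139, and a floor of 1 those of 20, most of them not marked above. For lists, the counts moved by over 1.5 times most often with the replicate block, the adjusted p under 0.01 and the omission of w1118 replicate 1. The causes were not tested. Genes near background had values at or under 16, where only bounds on folds could be given. The planned promoter description was not run.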
